A study of Homo sapiens with 16 samples.

Results

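RBM3 and CIRBP, the 2 genes described here, encode the cold-inducible RNA-binding proteins, and they were taken by symbol from the 58302 gene identifiers counted in HEK293 cells with and without silencing of Gemin5. RBM3 entered because its read counts fell in polysomes in these same libraries, so its Polysome values are given as a description without a test. Its tests in cytoplasmic RNA are not independent of that choice either, since the paper took both kinds of RNA from the same lysates. The paper also checked the decrease of RBM3 in polysome RNA by quantitative PCR. CIRBP entered as the cold-induced relative of RBM3. HEK293 cells are an established human line derived from embryonic kidney. RNA was sequenced from cytoplasmic lysates (Input) and from pooled heavy fractions of sucrose gradients, where mRNAs carrying several ribosomes sediment (Polysome). The 16 libraries fall into 4 groups of 4. Input siRNAG5 and Polysome siRNAG5 came from cells given 100 nM of a small interfering RNA (siRNA) against Gemin5 with Lipofectamine. The labels describe the cells of Input Ctrl and Polysome Ctrl as untreated, while the treatment protocol lists a control siRNA and the paper names it as the control of the silencing. The sources disagree on this, so the Ctrl cells are described here only as cells without the siRNA against Gemin5. All cells were grown in DMEM medium, the 4 replicates of a group are described as independent biological samples, and no sample was labelled as cooled. According to the paper, cells were held briefly on ice with cycloheximide, which blocks elongating ribosomes, and washed cold before lysis. An effect of this step on the members was not tested.

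Both proteins are small, with a single RNA recognition motif followed by a glycine-rich tail, and their mRNAs are known to rise when mammalian cells are mildly cooled and to fall on warming. They bind other mRNAs and affect their stability, polyadenylation and translation. RBM3 is known for raising global protein synthesis and protecting neurons in the cold, and CIRBP for its response to ultraviolet light and hypoxia and for tuning the amplitude of the circadian clock. Gemin5, the silenced protein, recognises small nuclear RNAs for the SMN complex and also binds ribosomes and mRNAs.

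RBM3 (ENSG00000102317) lies on chromosome X of GRCh38 from 48574449 to 48581162 and CIRBP (ENSG00000099622) on chromosome 19 from 1259384 to 1274880, both on the plus strand. The canonical transcript of RBM3, RBM3-203, has 7 exons and 4298 nt with a coding sequence of 471 nt. That of CIRBP, CIRBP-214, has 6 exons and 3346 nt with 891 coding nt, and the shorter CIRBP-201 has 1328 nt with 516 coding nt. The genes are related, and the stretch below is shown because it is the 60-base coding window in which they are most alike. It spans coding bases 196 to 255 in both transcripts, and capitals mark the 12 bases at which they differ.
RBM3-203: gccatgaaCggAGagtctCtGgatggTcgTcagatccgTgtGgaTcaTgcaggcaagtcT
CIRBP-201: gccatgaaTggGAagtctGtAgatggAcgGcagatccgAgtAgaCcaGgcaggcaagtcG
Over the whole alignment of these coding sequences, 72.7% of 454 aligned bases were identical, and the longest run of identical coding bases was 11 nt. Over the full transcripts the longest shared run was 14 nt with CIRBP-201 and 15 nt with CIRBP-214. No stretch of CIRBP of 100 bases or more had a match elsewhere in the genome at 90% identity. For RBM3, 18.3% of the transcript had such matches and 0% of its coding sequence, and 2 matches reached 95%. Reads that aligned to several places had been left out of the counts. RBM3 also shares 422 exon bases with an unnamed gene on its own strand (ENSG00000279528), which was counted with 0 to 26 reads per library, and 95 and 450 with antisense genes (ENSG00000204620 with 18 to 48 reads and ENSG00000228343 with 0). CIRBP shares 4 with CIRBP-AS1, which had 2 to 25 reads. The strand setting of the counting is not given in the sources used here, so reads of RBM3 and its antisense partners over shared bases are uncertain.

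The siRNA is shown because a guide strand can also act on mRNAs that match its seed. Capitals mark the seed (bases 2 to 8) in the guide strand and the bases it pairs with in the sense strand.
siRNA sense strand: ccuuaaucaagAAGAGAAauu
siRNA guide strand: uUUCUCUUcuugauuaagg
The 7-base match to the seed was found in none of RBM3-203, CIRBP-214 and CIRBP-201, whereas 43.6% of 19708 canonical protein-coding transcripts hold it at least once. RBM3 has 11 annotated transcripts and CIRBP 46, and the others were not searched. An effect of the siRNA on other mRNAs was not tested. The promoters, the 250 bases before each gene's start in RefSeq (GRCh38.p14), are shown because RBM3 passed the test in Input and CIRBP did not. Whether their motifs bear on that was not tested. The RBM3 promoter is chrX:48574234-48574483 and that of CIRBP chr19:1269082-1269331, both on the plus strand. The RefSeq starts differ from the gene spans given above. The CIRBP window lies inside its span, and the RBM3 window runs past the start of its own. Capitals mark 3 motifs, searched on both strands. One is the GC box, spelled GGGCGG, and another the CCAAT box, which has only those letters. The last is the core that ETS factors bind, spelled CCGGAA.
RBM3 promoter: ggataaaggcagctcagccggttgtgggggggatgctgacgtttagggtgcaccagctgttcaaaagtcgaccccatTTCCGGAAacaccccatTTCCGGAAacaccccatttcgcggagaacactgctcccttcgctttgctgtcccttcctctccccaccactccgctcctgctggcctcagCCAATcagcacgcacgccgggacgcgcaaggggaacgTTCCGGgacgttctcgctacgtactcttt
CIRBP promoter: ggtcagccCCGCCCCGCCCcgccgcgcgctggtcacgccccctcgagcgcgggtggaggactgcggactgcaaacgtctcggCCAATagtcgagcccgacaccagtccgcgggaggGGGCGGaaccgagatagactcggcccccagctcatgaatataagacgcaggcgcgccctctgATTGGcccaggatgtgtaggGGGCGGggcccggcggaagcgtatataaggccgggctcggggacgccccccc
The RBM3 promoter had 59.6% G and C and that of CIRBP 71.2%, against a median of 58% over 35116 promoters. RBM3 had no GC box and CIRBP had 4, of which a pair overlap, and 42.6% of the promoters hold at least 1. There was 1 CCAAT box in RBM3 and 2 in CIRBP (32% of promoters). RBM3 had 5 matches to the ETS core at 3 places, as its palindromic copies match on both strands, and CIRBP had none (14.5% of promoters). The paired heat shock motif GAANNTTC occurred once in RBM3, overlapping an ETS core, and not in CIRBP (5.78% of promoters). A TOP element, which ties translation of an mRNA to growth signals, begins with C and a run of pyrimidines. Neither RBM3-203 nor CIRBP-201 starts with C, and CIRBP-214 starts with C but has a run of only 3 pyrimidines, while 4.63% of protein-coding transcripts start with C followed by 4 pyrimidines. Only the annotated starts of these 3 transcripts were examined, not the RefSeq starts above, and the starts used in these cells were not measured.

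Between 11145324 and 24511299 reads per library were counted on genes, RBM3 had 2989 to 9673 of them and CIRBP 1369 to 3486. GEMIN5, the silenced gene, was at 15.9, 18.9, 16 and 20.7 CPM (counts scaled to library size after TMM normalization) in the Input Ctrl libraries 1 to 4 and at 7.46, 6.51, 6.22 and 6.68 CPM in Input siRNAG5. In Polysome it was at 5.50, 7.21, 7.76 and 9.28 CPM in Ctrl and at 2.10, 3.08, 3.05 and 2.35 CPM in siRNAG5. The log2 fold change (log2 FC) of siRNAG5 against Ctrl was -1.40 in Input and -1.44 in Polysome (adjusted p = 3.105e-10 and 0.00477, edgeR). All 4 genes of a HEK293 list (PAX2, NEFM, NEFL and VIM) had reads in each group, with sums of 907 to 1385 CPM in Input and 338 to 600.5 CPM in Polysome. A liver list of 12 genes stood apart between libraries. All 12 had reads in the 4 Polysome Ctrl libraries and in Input Ctrl 3 and 4, with sums of 73.2 to 151 CPM in Polysome Ctrl and of 135 and 118 CPM in the latter. Input Ctrl 1 and 2 were at 2.59 and 1.12 CPM, and the 8 siRNAG5 libraries at 0.371 to 1.26 CPM with 2 to 5 of the genes detected. ALB, the gene of serum albumin, had 414 to 585 reads in those 6 Ctrl libraries and 0 to 2 in each of the other libraries. Liver transcripts and treatment therefore cannot be told apart in Polysome, and the values of the members and lists in Input are given with and without Input Ctrl 3 and 4. A list of 4 blood genes was low throughout but also highest in Polysome Ctrl, with sums of 1.33 to 2.73 CPM there and of 0.33 to 1.14 CPM in the other 12 libraries. HBB, the gene of beta globin, had 6 to 25 reads in the Polysome Ctrl libraries, 2 and 5 in Input Ctrl 3 and 4 and 0 in the others.

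RBM3 mRNA fell in whole cytoplasmic RNA after Gemin5 silencing, whereas no change of CIRBP was detected there. In Input, RBM3 was at 387, 415, 351 and 379.7 CPM in the Ctrl libraries 1 to 4 and at 203, 200.6, 217 and 186 CPM in the siRNAG5 libraries. The lowest Ctrl library lay 134 CPM above the highest siRNAG5 library, so the groups were well apart. The means were 383 ± 26.3 and 202 ± 12.8 CPM (SD, n = 4 each). The log2 FC of RBM3 was -0.91 (standard error 0.066, 95% interval -1.05 to -0.78, adjusted p = 2.117e-11, edgeR's quasi-likelihood test), a fold of 0.531. This test shares its lysates with the Polysome libraries on which RBM3 was chosen, so it is not independent of that choice. A gene is called here when its log2 FC exceeded 0.5 in size and its adjusted p (Benjamini-Hochberg) was below 0.05. RBM3 met both limits and was the 1 of the 2 members that did in Input, where 16.5% of the 14134 genes tested were called and 6.02% were called lower. Only 88 of these genes had a lower log2 FC than RBM3, and the median over all of them was 0.04. In bulk RNA, less RNA per cell and fewer cells with the RNA cannot be told apart. Without Input Ctrl 3 and 4, the libraries with liver transcripts, the log2 FC of RBM3 was -0.99 (adjusted p = 7.004e-10, edgeR).

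CIRBP was at 136, 134, 127 and 133 CPM in Input Ctrl and at 148, 126, 143 and 121 CPM in Input siRNAG5. The groups overlapped, with 2 siRNAG5 libraries above all Ctrl libraries and 2 below all of them. The means were 132 ± 3.89 and 135 ± 13.0 CPM (SD, n = 4 each). The log2 FC of CIRBP was 0.04 (standard error 0.069, 95% interval -0.10 to 0.18, adjusted p = 0.713, edgeR), and it was not called. It was 0.0035 without the libraries with liver transcripts. CIRBP thus lay at the middle of all genes tested, of which 7079 had a lower log2 FC.

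**Figure D1:**
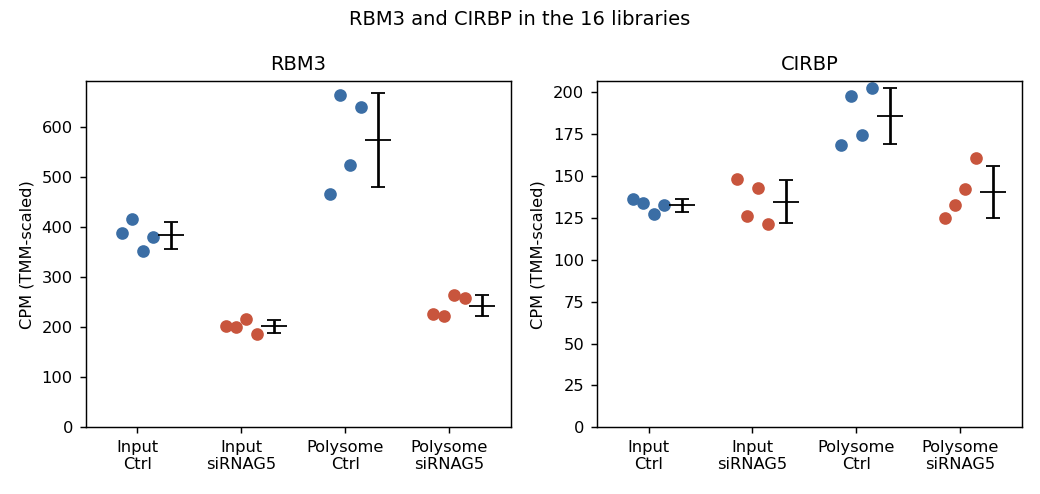
CPM of RBM3 (left) and CIRBP (right) in each of the 16 libraries, by group, with the mean and SD of 4 libraries beside the points and axes from 0. RBM3 occupied separate ranges in the 4 groups, from 186 to 217 CPM in Input siRNAG5 up to 466 to 664 CPM in Polysome Ctrl, while only the Polysome Ctrl libraries of CIRBP stood above its other groups.

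In Polysome, RBM3 was lower in siRNAG5, which is the decrease it was chosen for. CIRBP was also lower on scaled CPM but missed the adjusted threshold. RBM3 was at 466, 664, 525 and 639 CPM in the Ctrl libraries and at 227, 222, 264 and 258 CPM in the siRNAG5 libraries. A gap of 202 CPM separated the groups, whose means were 574 ± 93.9 and 243 ± 21.3 CPM (SD, n = 4 each). The log2 FC of RBM3 was -1.20 (standard error 0.16), a fold of 0.437, and 115 of 14420 genes had a lower one. Of all genes tested in Polysome, 7.95% were called and 4% called lower, a share from which nothing is read for RBM3.

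CIRBP was at 168, 198, 174 and 202 CPM in Polysome Ctrl and at 125, 132, 142 and 161 CPM in Polysome siRNAG5. All Ctrl libraries lay above all siRNAG5 libraries, with a gap of 7.37 CPM between the nearest of them. This gap depends on the TMM scaling, and the alternative fits kept a scaling of this kind. As unscaled shares the groups overlapped. In Ctrl 1 to 4, CIRBP had 2019, 2878, 3126 and 2571 reads of 11145324, 14955873, 14326270 and 11226410. In siRNAG5 1 to 4 it had 2439, 3441, 3450 and 3486 of 14407396, 16365110, 15255419 and 16884295. These shares lay in much the same range, so the lower level of CIRBP and its log2 FC rest on the scaling. The means were 186 ± 16.9 and 140.1 ± 15.5 CPM (SD, n = 4 each). The log2 FC of CIRBP was -0.36 (standard error 0.14, 95% interval -0.66 to -0.07), and its adjusted p of 0.112 in edgeR left it uncalled (unadjusted p = 0.0210 in the same test). With 3 other fits, all scaled in a like way, the adjusted p passed. It was 0.028 in DESeq2, 0.0102 with all 16 libraries in one edgeR fit and 0.0107 with the library sets described next as a covariate. The log2 FC stayed within 0.5 in each.

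The Polysome libraries divide into 2 sets on the third principal component of all libraries, which holds 8.26% of the variance and crosses the treatments. Ctrl 1, Ctrl 2, siRNAG5 1 and siRNAG5 4 had positive scores and the other 4 Polysome libraries negative ones. Within the first set, the mean log2 CPM of RBM3 differed between siRNAG5 and Ctrl by -1.20 and that of CIRBP by -0.36. Within the second set the differences were -1.26 for RBM3 and -0.45 for CIRBP. In both sets both genes were without overlap on scaled CPM between 2 Ctrl and 2 siRNAG5 libraries, which so few libraries can easily show. The share of all genes that do so was not counted, so nothing is read from it.

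**Figure D2:**
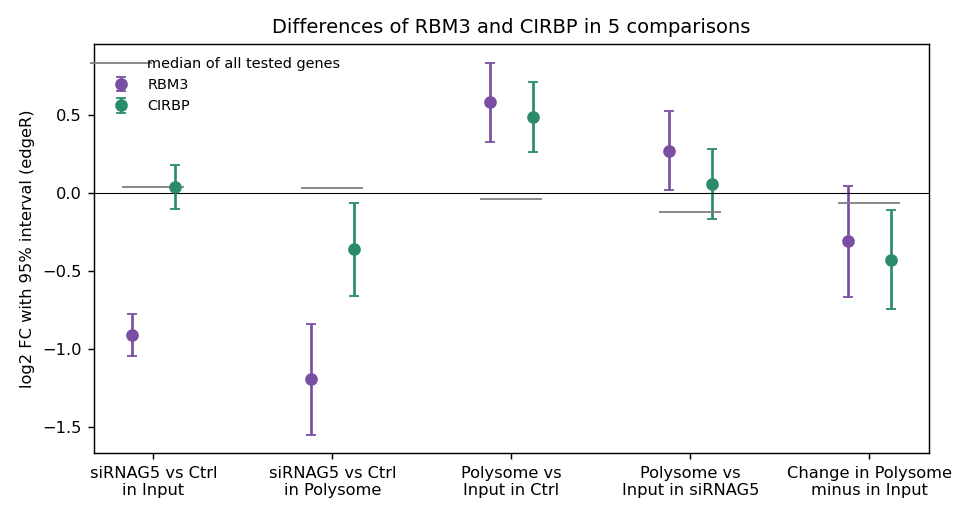
Log2 FC of RBM3 and CIRBP in 5 comparisons, with 95% intervals from edgeR and a grey bar at the median of all genes tested. The intervals of RBM3 that involve Polysome are descriptions and no test, since RBM3 was chosen on those libraries. RBM3 lay at -0.91 in Input and -1.20 in Polysome, CIRBP at 0.04 and -0.36, and both were above the median of all genes in the 2 comparisons of Polysome with Input.

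A further comparison sets Polysome against Input on CPM scaled by TMM over all 16 libraries. Its values depend on this scaling between unlike fractions. In Ctrl cells both members were at a higher scaled CPM in Polysome than in Input. CIRBP rose from 132 to 186 CPM without overlap, a log2 FC of 0.49 (standard error 0.11, 95% interval 0.26 to 0.71, adjusted p = 0.00111, edgeR), and it was not called because the log2 FC stayed under 0.5. The limit decides this, since DESeq2 gave 0.52 and edgeR without its filter 0.51. Without Input Ctrl 3 and 4 it was 0.46 (adjusted p = 0.0248, edgeR). All 4 Polysome Ctrl libraries hold liver transcripts, so this leaves them in Polysome only and cannot check their effect on the contrast. For RBM3 the same contrast gave 0.58 (standard error 0.12), a description. Of 14958 genes tested, 37.6% were called and 19.4% were called higher in Polysome in Ctrl cells.

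In siRNAG5 cells the fractions were closer on scaled CPM. Before scaling, CIRBP had 1881 to 2869 reads in Input, of 18411789 to 24511299 per library. In Polysome it had 2439 to 3486, of 14407396 to 16884295, a larger share of the reads. CIRBP was at 135 CPM in Input and 140.1 CPM in Polysome, where the groups overlapped, with a log2 FC of 0.06 (standard error 0.11, 95% interval -0.17 to 0.28, adjusted p = 0.667, edgeR). RBM3 had a log2 FC of 0.27 (standard error 0.12), with its highest Input library 5.08 CPM below its lowest Polysome library. Here 47% of the genes tested were called and 21.5% called higher.

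Whether the change in Polysome exceeded that in Input was asked with the 4 groups in one model. The answer again depends on TMM scaling between unlike fractions, and unscaled shares were not fitted. It is therefore not read as a change in ribosome loading. The difference of changes was -0.43 on the log2 scale for CIRBP (standard error 0.15, 95% interval -0.75 to -0.11) at an unadjusted p of 0.0105 and an adjusted p of 0.520, so it failed the correction over all genes. For RBM3 it was -0.31 (standard error 0.17), a description without a test, since RBM3 was chosen on the Polysome libraries. The median over all genes was -0.06. EdgeR called 0% of 14958 genes for this contrast. With the same log2 FC limit, 789 were called at the unadjusted p, 30 by DESeq2 and 351 with the library sets as a covariate. Without Input Ctrl 3 and 4 the difference was -0.40 for CIRBP and -0.24 for RBM3. That cannot check the effect of liver transcripts here either, as they remain in Polysome Ctrl.

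The order of levels on scaled CPM differed between the genes. RBM3 was highest in Polysome Ctrl, followed by Input Ctrl, Polysome siRNAG5 and Input siRNAG5, and no neighbours in this order overlapped. CIRBP was highest in Polysome Ctrl, and its other 3 groups, with means of 132 to 140.1 CPM, overlapped each other. On this scale RBM3 was lower in siRNAG5 polysomes than in the Ctrl lysate, by at least 86.8 CPM between single libraries. Unscaled shares went the other way, with 6414 RBM3 reads of 15255419 in Polysome siRNAG5 3 and 5549 of 18053614 in Input Ctrl 2. The share of all genes without overlap between groups was not counted, here or in the comparisons above.

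The proportion of RBM3 to CIRBP within a library needs no scaling between libraries. In Input Ctrl there were 2.84, 3.10, 2.76 and 2.86 RBM3 reads per CIRBP read, and in Input siRNAG5 1.37, 1.59, 1.52 and 1.53. These ranges were far apart, and the mean of the log2 ratio changed by -0.95 (two-sided exact permutation test p = 0.0286, the smallest that 4 against 4 can give), in all 4 siRNAG5 libraries. As above, this test is not independent of how RBM3 was chosen. Without Input Ctrl 3 and 4 it changed by -0.99 (exact permutation p = 0.0667, the smallest that 2 against 4 can give). In Polysome the log2 ratio was 1.62 ± 0.117 in Ctrl and 0.796 ± 0.0992 in siRNAG5 (SD, n = 4 each), a difference of -0.82 that is a description, since RBM3 was chosen on these libraries. Per kilobase of all annotated exons, the level of RBM3 was 3.16 ± 0.158 times that of CIRBP in Input Ctrl and 1.64 ± 0.104 times in Input siRNAG5 (SD, n = 4 each). With CIRBP-201 as the only CIRBP transcript these values were 0.894 and 0.464, so which mRNA is more abundant depends on the transcript assumed. The change between groups does not depend on it.

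**Figure D3:**
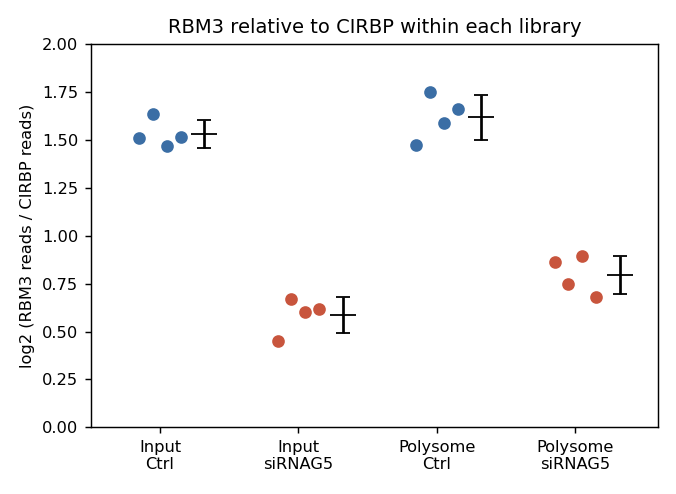
Log2 of RBM3 reads over CIRBP reads in each library, by group, with mean and SD of 4 libraries beside the points. The Ctrl libraries of both fractions lay between 1.47 and 1.75 and all siRNAG5 libraries between 0.45 and 0.89.

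Over the 16 libraries, the 5 protein-coding genes whose log2 CPM followed RBM3 most closely among 12432 were PPIF, a mitochondrial cyclophilin, ARPC4, a subunit of the Arp2/3 actin nucleator, HMGN2, a nucleosome-binding protein, SRSF2, a splicing factor, and LRRC59, at Pearson r of 0.97, 0.97, 0.97, 0.96 and 0.96. Within groups, as deviations from the 4 group means, r was 0.55 to 0.74 for these genes. For CIRBP they were HMX1, a homeobox factor, RNF187, RPUSD4, a mitochondrial pseudouridine synthase, HNRNPAB, a nuclear RNA-binding protein, and EXOSC6, a subunit of the RNA exosome, at r of 0.90, 0.88, 0.87, 0.86 and 0.85. RBM3 and CIRBP had r of 0.74 with each other, and 0.77 within groups. CIRBP ranked 613 among the genes most like RBM3, and RBM3 ranked 165 for CIRBP. These points share the fraction, the treatment and the depth of their libraries, and the values of r are descriptions.

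Other genes of the RBM name, which encode proteins with RNA recognition motifs, gave the nearest comparison by family. Of 39 such genes besides RBM3, 34 could be tested in Input, where 3 were called lower and 0 higher (background 6.02% and 10.5%). Their median log2 FC was -0.14 and they ranged from -0.76 to 0.43, so RBM3 at -0.91 lay below every one of them. RBM3 was chosen for a decrease and the other RBM genes were not, so its place is a description. The called genes were RBM19, of ribosome biogenesis (-0.76, adjusted p = 8.624e-07, edgeR), RBM8A, of the exon junction complex (-0.54), and RBM45 (-0.50). These 3 were again the ones called, of 35 tested, without Input Ctrl 3 and 4, where the median was -0.14. In Polysome 37 were tested, with a median of -0.12 beside 0.03 for all genes, 1 was called lower and 1 higher (background 4% and 3.95%), and RBM8A fell by 0.72 and RBM43 rose by 1.26 on the log2 scale (adjusted p = 0.0476 and 0.0312, edgeR).

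The cold shock domain proteins bind RNA through a different fold, shared with the cold shock proteins of bacteria. In Input, 6 of 8 were tested, and CSDC2 rose by 1.98 on the log2 scale (adjusted p = 3.523e-06, edgeR) while 0 were called lower (background 10.5% called higher and 6.02% lower), with a median of -0.08. CSDC2 was again the 1 called without Input Ctrl 3 and 4, where the median was -0.13. In Polysome, CSDC2 rose by 1.52 and LIN28B, which blocks the maturation of let-7, by 0.90, and YBX1, a main component of stored mRNA particles, fell by 0.80 (adjusted p = 0.0131, 0.0204 and 0.0373, edgeR). That is 2 of 6 called higher and 1 lower, against 3.95% and 4% of all genes.

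Of 11 genes for proteins that act on RBM3 or CIRBP, 10 were tested in Input. PRMT1, which methylates arginines of CIRBP, fell by 0.61 and SRPK1, a kinase of arginine-serine rich proteins, by 0.57 on the log2 scale (adjusted p = 2.034e-08 and 3.896e-05, edgeR), and 0 were called higher, against 6.02% of all genes called lower and 10.5% higher. The median was -0.22. The same 2 genes were called without Input Ctrl 3 and 4, where the median was -0.19. PRMT1 also fell in Polysome, by 0.56 (adjusted p = 0.0385, edgeR), as the only 1 of 10 called there, where 4% of all genes were called lower and 3.95% higher. Among 8 mRNAs reported as targets of the members, 0 were called by edgeR in either fraction, of 6 tested in Input and 8 in Polysome, where 16.5% and 7.95% of all genes were called. With so few genes, 0 is not far from that background. Without Input Ctrl 3 and 4, 0 of 7 were called in Input, with a median of 0.11 in place of 0.03. Their log2 FC ranged from -0.42 to 0.17 in Input and from -0.47 to 0.45 in Polysome.

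Heat-induced chaperones respond to temperature in the direction opposite to the members. Of 9 tested in Input, 4 were called lower and 0 higher, against 6.02% and 10.5% of all genes, with a median log2 FC of -0.40 beside 0.04 for all genes. The same 4 were called without Input Ctrl 3 and 4, where the median was -0.41. HSPA1B fell by 0.84, DNAJB1, a partner of HSP70, by 0.81 and HSPE1, the mitochondrial HSP10, by 0.77 on the log2 scale (adjusted p = 1.456e-06, 4.55e-09 and 1.543e-09, edgeR). In Polysome HSPA1B fell by 1.44 and DNAJB1 by 0.68 (adjusted p = 0.0126 and 0.0130, edgeR). They were 2 of 9 called lower and 0 were called higher, against 4% and 3.95% of all genes, and the median was -0.67. HSPA1A and HSPA1B are near-identical copies, so the value of HSPA1B is uncertain. The comparison of related genes with the members is drawn for both fractions.

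**Figure D4:**
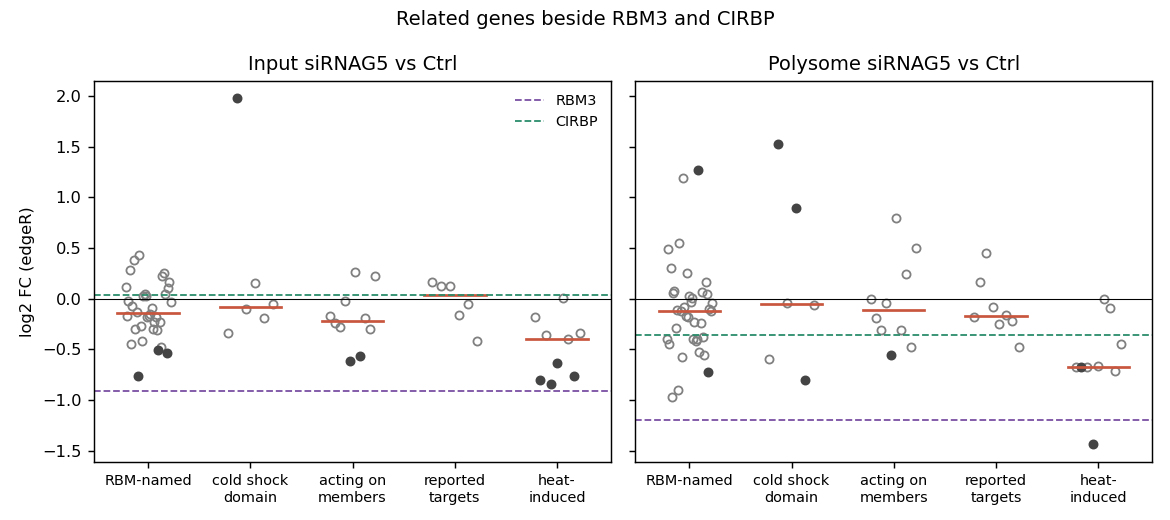
Log2 FC of siRNAG5 against Ctrl in Input (left) and Polysome (right) for each tested gene of 5 lists, with filled points for called genes, open points for the others, a red bar at the median of a list and dashed lines at RBM3 and CIRBP. In Input the RBM3 line at -0.91 lay below all genes of the 5 lists, and the medians of the lists ranged from -0.40 for the heat-induced chaperones to 0.03 for the reported targets. RBM3 was chosen for its decrease in Polysome, so its place is a description.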

How the data were processed

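RNA of HEK293 cells was sequenced by the authors from stranded libraries of polyadenylated RNA, aligned to GRCh38 with STAR 2.5.3a and counted per gene of Ensembl release 91 with QoRTs. They deposited these counts as whole numbers without normalization. The 5 rows that name no gene were left out of library sizes. Reads aligned to several places made up 4.88 to 6.04% in Input and 21.2 to 42.4% in Polysome, those on no gene 0.667 to 1.33% and ambiguous ones 4.14 to 7.41%. From the deposited counts, siRNAG5 was compared with Ctrl in a fit of the 8 libraries of a fraction, and fractions in one fit of 16 libraries, by the quasi-likelihood test of edgeR 4.0.16 (R 4.3.3) after filterByExpr and TMM. P-values were adjusted over all genes tested. CPM used TMM factors of the 16 libraries. Names and lengths came from GENCODE 44, which named 57532 identifiers, and promoters from RefSeq. Figures, ratios and correlations were made with matplotlib 3.10.9, numpy 2.4.6 and pandas 2.3.3 in Python 3.11.15. Scripts were tested on simulated counts. No 2 libraries of a group agreed within sampling noise.

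The members and lists were chosen with earlier results of these data known. Named genes were the members, GEMIN5, overlapping genes, the 5 most correlated genes of each member and, per list and comparison, up to 3 called genes with the largest change. Alternatives were DESeq2 1.42.0 without shrinkage, RLE size factors, the unadjusted p, no filter, replicate numbers as a block, all libraries in one fit, the library sets as a covariate, canonical transcript length and each library left out. Leaving out Input Ctrl libraries with liver transcripts (liver list over 10 CPM), and CIRBP-201 as the transcript, were added after the data had been seen. Proteins were not analysed here.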

Additional observations from a re-analysis of the deposited data

How the results depend on the processing

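The lower RBM3 in Input kept its direction and call in every alternative, with a log2 FC from -0.99 to -0.87. RBM3 in Polysome stayed between -1.28 and -1.10. CIRBP stayed uncalled in Input and Polysome in all alternatives, and its adjusted p in Polysome ranged from 0.0102 to 0.282. CIRBP in Input had a log2 FC of -0.013 to 0.081 with single libraries left out, negative only without Input siRNAG5 1, and Polysome vs Input in siRNAG5 gave CIRBP -0.014 to 0.12, negative only without Polysome siRNAG5 4. For Polysome vs Input in Ctrl, CIRBP passed the limit of 0.5 with DESeq2 (0.52), RLE size factors (0.51) and no filter (0.51), and single libraries left out gave 0.44 to 0.54, over the limit without Input Ctrl 1, Polysome Ctrl 1, Polysome Ctrl 3, Polysome siRNAG5 2 or Polysome siRNAG5 3. The ratio of RBM3 to CIRBP per length was 3.16, 1.64, 3.36 and 1.90 in Input Ctrl, Input siRNAG5, Polysome Ctrl and Polysome siRNAG5. It was 2.25, 1.17, 2.39 and 1.35 with canonical transcripts and 0.894, 0.464, 0.950 and 0.538 with CIRBP-201, by construction of the shorter length.

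Input and Polysome RNA came from the same lysates according to the paper, but the labels do not say that a replicate number marks a lysate, and same-numbered libraries did not all deviate together, so the numbers were not used as pairs. With the number as a block the log2 ratio of RBM3 to CIRBP in Input kept its difference of -0.95 at an exact p of 0.125, the smallest that 4 pairs allow, no other call of a member changed, and 1002 genes were called in Polysome in place of 1146. That Polysome count was 2942 with the unadjusted p, 1971 with DESeq2, 1766 without a filter, 2597 with all libraries in one fit and 3058 with the library sets as a covariate. Single libraries left out gave 189 to 1523, with 189 without Ctrl 2, 581 without Ctrl 4 and 518, 512 and 534 without siRNAG5 1, 2 and 3. The count for the difference of changes, 0 in edgeR, was 789 with the unadjusted p, 30 with DESeq2, 57 without a filter, 351 with the library sets, 9 without the Input Ctrl libraries with liver transcripts and 0 to 1 with single libraries left out. Without the 2 Input Ctrl libraries with liver transcripts the log2 ratio of RBM3 to CIRBP in Input changed by -0.99 at an exact p of 0.0667, the smallest that 2 against 4 can give. The causes were not tested. Each member had at least 1369 reads in every library. The coefficient of variation in a group was 6.37 to 16.4% against a counting error of at most 2.31% per library, except for CIRBP in Input Ctrl, where it was 2.93% against 2.36 to 2.70%.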

Other observations

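The related genes also differed between the fractions on scaled CPM, and the genes named here went the same way in Ctrl and siRNAG5 cells. Among the cold shock domain proteins, YBX1 was lower in Polysome than in Input by -1.56 on the log2 scale in Ctrl and by -2.21 in siRNAG5, and YBX3 by -1.25 and -1.29, while LIN28B was higher by 2.04 and 2.75 (edgeR, all adjusted p at most 8.644e-06). YBX1 has processed copies in the genome, which can cost it reads. Of 37 tested RBM genes, 1 was called lower and 10 higher in Polysome in Ctrl cells, and 4 lower and 9 higher in siRNAG5 cells, with RBM47, a cofactor of C-to-U editing, highest at 2.03 and 2.22 and RBM5, a splicing regulator, lowest at -0.86 and -1.66. Over all genes, 18.2% were called lower and 19.4% higher in Ctrl, and 25.4% and 21.5% in siRNAG5. Among the reported target mRNAs, CLOCK and PER2 of the circadian clock were higher in Polysome, by 1.03 and 1.37 in Ctrl and by 1.04 and 1.10 in siRNAG5, and ATR, a kinase of the DNA damage response, was lower by -0.89 and -1.28. Of the 9 chaperones, 4 were called lower and 1 higher in Ctrl, and 7 lower and 1 higher in siRNAG5, beside the same shares of all genes, the higher one being DNAJB1 in both. Of 10 tested genes for proteins acting on the members, 3 were called lower and 3 higher in each treatment. SP1, GSK3B and SRPK1 were higher by 2.20, 1.02 and 0.73 in Ctrl and by 2.69, 1.04 and 0.96 in siRNAG5. TRPV4, CLK1 and PRMT1 were lower by -0.77, -0.73 and -0.62 in Ctrl and by -0.52, -0.58 and -0.60 in siRNAG5. Differences between the treatments in these values were not called by edgeR, which called 0 genes at the adjusted p and the log2 FC limit. With the same limit, 30 genes were called by DESeq2, 789 at the unadjusted p and 351 with the library sets as a covariate.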
